A study of Mus musculus with 14 samples.

Results

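The core circadian clock genes were followed in the livers of 14 mice. They are the 10 genes Arntl, Clock, Npas2, Per1, Per2, Per3, Cry1, Cry2, Nr1d1 and Nr1d2, represented by 23 of the 45101 probe sets of the array. Every probe set that the platform's gene table lists with exactly 1 of these symbols was taken, whatever its values. All animals were male CBA/J mice, an inbred strain that loses its photoreceptors early in life, kept alone in a cage and rationed to 84 kcal a week of purified food of the AIN93M type. From 2 months of age 7 mice kept to the control diet and 7 were given a diet with an extract of krill powder, which matched the control diet in total protein and total lipid but not in amino acids or fatty acids. The diets ran for 3 months, the mice were 5 months old when the liver was collected, and the RNA of each mouse was hybridised to an array of its own. The hours of collection and of feeding are not given in the sources used here. Whole liver was measured, so fewer cells of a type and less RNA per cell cannot be told apart.

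The liver clock is a feedback loop of transcription. ARNTL, also called BMAL1, pairs with CLOCK or its close relative NPAS2 to form the positive limb, which binds E-box sequences and switches on the Per, Cry and Nr1d genes. PER and CRY proteins of the negative limb then block the positive limb, while NR1D1 and NR1D2, the REV-ERB receptors, repress Arntl and compete with the ROR receptors for their elements. In mouse liver Arntl and Npas2 transcripts run nearly opposite to Nr1d1 and Per3, and Cry1 peaks later than the Per genes. A mouse taken at another phase could therefore show such genes of the limbs moved in opposite ways. The members of a limb do not all peak together, so an average over a limb need not follow the phase. Meal times set the liver clock strongly.

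The start-site windows of 4 members, of which Per1 was added after its values were seen, are shown, because the genes that fell and those that did not can be set beside the motifs through which the loop is known to act. The windows run from 250 bases before to 50 bases after a RefSeq start in GRCm38.p6, are written 5′ to 3′ on the strand of the gene, and have in capitals each match to an E-box (CACGTG), to the AGGTCA core of REV-ERB and ROR elements, and to a D-box (TTANGTAA), on either strand. They are Arntl at chr7:113207261-113207560 on the plus strand, Per1 at chr11:69098699-69098998 on the plus strand, Per3 at chr4:151044616-151044915 on the minus strand and Nr1d1 at chr11:98775328-98775627 on the minus strand.
Arntl: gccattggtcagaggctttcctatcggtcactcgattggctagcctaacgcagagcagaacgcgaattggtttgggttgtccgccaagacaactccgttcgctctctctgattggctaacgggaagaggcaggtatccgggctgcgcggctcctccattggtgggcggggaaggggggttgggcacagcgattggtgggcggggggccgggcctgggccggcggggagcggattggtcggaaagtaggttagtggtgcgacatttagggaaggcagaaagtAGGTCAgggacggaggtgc
Per1: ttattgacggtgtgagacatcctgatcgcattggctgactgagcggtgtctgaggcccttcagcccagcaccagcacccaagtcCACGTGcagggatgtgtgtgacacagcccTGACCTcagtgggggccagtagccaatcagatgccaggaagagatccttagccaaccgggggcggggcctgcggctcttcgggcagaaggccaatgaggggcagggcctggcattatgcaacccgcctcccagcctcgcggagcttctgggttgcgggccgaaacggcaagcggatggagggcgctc
Per3: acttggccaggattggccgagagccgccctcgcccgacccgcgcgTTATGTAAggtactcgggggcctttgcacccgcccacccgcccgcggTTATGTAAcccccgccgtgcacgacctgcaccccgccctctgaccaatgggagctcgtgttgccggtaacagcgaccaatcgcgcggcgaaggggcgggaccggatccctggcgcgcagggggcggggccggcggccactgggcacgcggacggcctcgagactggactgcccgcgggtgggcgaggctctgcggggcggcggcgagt
Nr1d1: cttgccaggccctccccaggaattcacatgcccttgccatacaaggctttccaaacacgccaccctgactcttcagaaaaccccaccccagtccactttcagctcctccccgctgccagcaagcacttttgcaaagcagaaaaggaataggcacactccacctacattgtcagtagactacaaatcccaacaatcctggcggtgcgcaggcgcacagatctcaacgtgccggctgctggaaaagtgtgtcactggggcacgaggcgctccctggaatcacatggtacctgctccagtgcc
The table held 13 windows of 9 members, and Per2 was not listed. An E-box lay in 2 of the 13 windows, those of Per1 and Cry1, against 7.15% of all 32851 windows. The AGGTCA motif lay in 4 of 13, of Arntl, Clock, Per1 and Nr1d2 (16.3% of all windows), and the D-box in 1 of 13, that of Per3 (2.32% of all windows), which held 2 copies at bases -205 and -158 from the start. These matches describe the printed letters only. Arntl, Clock and Per1 also had windows with no match. Of the 6 genes with a match Per3 was called lower and Nr1d2 higher, and Arntl, Clock, Per1 and Cry1 did not pass the test of diet. Of the genes without a match Cry2 and Nr1d1 were called lower, and Npas2 was not tested. Among all genes tested 25.3% were called lower and 23.7% higher.

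Signal was compared as log2(signal + 16). Of the 23 probe sets, 21 passed the filter on dim signal, which kept the upper 50% of probe sets, and they covered 9 of the 10 genes. Both Npas2 probe sets lay under the filter, at the 15.9th and 14.7th percentiles of mean signal. The single Nr1d1 probe set passed, at the 52.7th percentile, only through its control arrays. The Per2 probe set of rank 2 and the Per3 probe sets of ranks 5 and 6 by signal also owed their place mainly to the controls. Their krill means were 68.0, 109 and 117, against control means of 290, 387 and 221. The second Arntl probe set, at the 51.7th percentile, owed its place mainly to the krill arrays, with means of 158 in krill and 102.5 in control. Where a gene had several probe sets, the one with the highest mean stands for it.

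The arrays of the diets differed in quality, and this touches every value below. The ratio of 3' to 5' signal, as a log2 index over actin and pyruvate carboxylase, ranged from 1.56 to 2.28 in control and from 2.44 to 3.12 in krill arrays. These ranges do not overlap, so diet and this index cannot be told apart. Krill replicates 2, 4, 5 and 7 also had hybridisation spike-ins above those of every control array. On these 4 arrays the median signal of 80 olfactory and vomeronasal receptor probe sets, taken as a measure of background, was 131 to 180.2, against 29.9 to 70.2 on krill replicates 1, 3 and 6 and 20.1 to 37.1 on control arrays. Results are therefore given with and without those 4 arrays, though the receptor medians of krill replicates 3 (70.2) and 6 (38.6) also exceeded every control. Hepatocyte markers were bright (5 of 6 were on the array and all 5 passed the filter). The summed signal of the hepatocyte markers, which was 222971 to 366673 in control and 307286 to 606043 in krill livers, exceeded every control on 5 of 7 krill arrays. That of 6 Kupffer cell markers was 5829 to 8286 in control and 7301 to 14749 in krill livers, and that of 6 endothelial markers 8076 to 9326 and 4416 to 12970, again with 5 of 7 krill arrays above every control. The 5 lymphocyte markers, of which only 2 passed the filter, summed to 838 to 1262 and 1222 to 2683. The 5 stellate cell markers, which all passed, summed to 13534 to 19072 and 13224 to 18933. The part of these lists in the clock results was not tested.

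Of the 9 clock genes tested, 4 fell on the krill diet, 1 rose and 4 did not pass (limma, Benjamini-Hochberg adjusted p under 0.05 over 11343 genes). The 4 that fell, Per2, Per3, Cry2 and Nr1d1, all belong to the negative limb, in which 7 genes were tested. Of these Nr1d1 was under the receptor background on every krill array, so only a bound on its fall could be estimated. Among all genes tested 25.3% were called lower and 23.7% higher, 49.1% in all, so a call is common in this comparison. The median log2 change was -1.48 over the negative limb and 0.05 over all genes tested. Without krill replicates 2, 4, 5 and 7 the same 4 genes were called lower and none higher, against 19.8% of all genes called lower and 12.7% higher (32.5% in all). Of all genes called lower with 14 arrays, 65.7% were also called without those 4. By probe set 7 of 21 were lower and 1 higher, where 25.2% and 20.8% of all 22519 probe sets were (46% in all). Leaving out the 4 arrays made this 7 of 21 lower and 0 higher, where 20% and 9.99% of all were (30% in all). Once the 3'/5' index entered the model as a covariate, none of the 9 genes passed and none of the 11343 did, while the log2 changes of the 4 genes were -2.50 for Per2, -1.91 for Per3, -2.40 for Cry2 and -2.19 for Nr1d1 (limma adjusted p from 0.106 to 0.334).

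**Figure D1:**
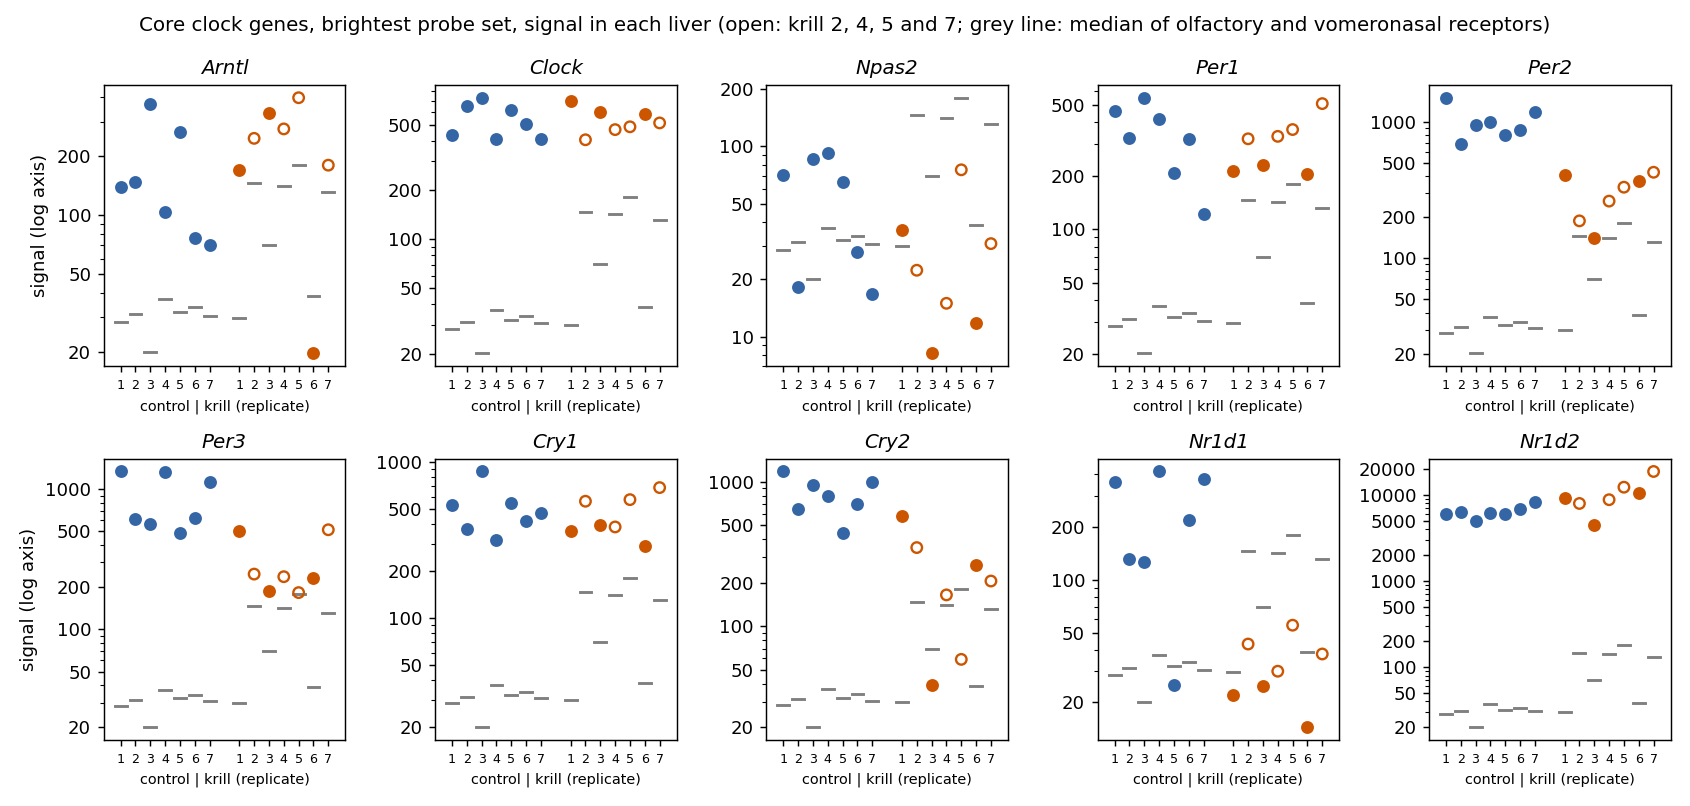
Signal of the brightest probe set of each clock gene in each of the 14 livers, on log axes. Blue points are control mice, orange points krill mice, open for replicates 2, 4, 5 and 7, and the grey lines mark the median signal of olfactory and vomeronasal receptor probe sets on the same array. Per2 is lower in all 7 krill mice than in any control, and Nr1d1 lies under the grey line in all 7 krill mice.

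Per2 codes for a scaffold of the repressor complex. Its signal had a lowest, median and highest value of 683, 953 and 1500.3 in control livers and of 142, 332 and 427 in krill livers. All 7 krill mice lay below all 7 controls. Per2 was the only 1 of the 9 genes whose diets did not overlap, and among all genes tested 7.86% lay wholly below and 6.56% wholly above the controls, 14.4% in all. By probe set 1 of 21 lay wholly below and 0 wholly above, where 7.88% and 5.24% of all probe sets did (13.1% in all). The means were 999 ± 272 (SD, n = 7) and 303 ± 109.5 (SD, n = 7), a change of -1.71 on the log2 scale (SE 0.24, limma adjusted p = 4.2e-05), or 3.28-fold lower on the log2(signal + 16) scale. It was -1.74 (SE 0.29, limma adjusted p = 0.000996) without krill replicates 2, 4, 5 and 7, and -1.65 with the spike-in level as a covariate (limma adjusted p = 0.00351). A second Per2 probe set fell by 2.02 on the log2 scale (limma adjusted p = 0.000554), but it exceeded the receptor median on only 3 of 7 krill arrays, and with krill values raised to that median the difference was -1.38. The third Per2 probe set, at -0.48, did not pass (limma adjusted p = 0.337). All 3 probe sets thus lay below 0.

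Per3, the least essential of the period genes in the mouse clock, was covered by 6 probe sets. The brightest read 484, 625 and 1338 (lowest, median and highest) in control livers and 183, 238 and 514 in krill livers. In 5 of 7 krill mice it was below every control, and krill replicates 1 and 7 reached the level of the lowest control. The change was -1.48 (SE 0.29, limma adjusted p = 0.000532), and -1.46 (SE 0.35, limma adjusted p = 0.00665) without krill replicates 2, 4, 5 and 7. All 6 probe sets had negative log2 changes, from -2.02 to -0.48, and 3 of them passed, of which the 2 dimmer exceeded the receptor median on 3 of 7 krill arrays each. Without those 4 arrays the 6 ranged from -2.99 to -0.90 and 3 passed, 2 of them among the 3 called with all arrays.

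Cry2, a cryptochrome repressor, varied widely among krill mice, with a log2 SD of 1.22. Its only probe set read 438, 796 and 1177 (lowest, median and highest) in control and 39.4, 206 and 579 in krill livers. The lowest krill values, 39.4 and 59.1, came from replicates 3 and 5. Both lay under the receptor median of their array (70.2 and 180.2), so part of this spread is among values not above background. In 6 of 7 krill mice Cry2 lay below every control. The change was -2.04 (SE 0.41, limma adjusted p = 0.00071), and -1.93 (SE 0.51, limma adjusted p = 0.0106) without krill replicates 2, 4, 5 and 7. On 5 of 7 krill arrays Cry2 still exceeded the median of the olfactory and vomeronasal receptors, compared with 7 of 7 control arrays. With krill values raised to that median the difference was -1.75, and -1.71 for krill replicates 1, 3 and 6 alone.

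Nr1d1, the REV-ERB alpha repressor of Arntl, varied most among the controls. Its probe set read 25.0, 218 and 415 (lowest, median and highest) in control and 14.4, 30.1 and 55.1 in krill livers. The lowest control, replicate 5, lay within the krill range, and the next control stood at 126. In all 7 krill mice Nr1d1 was below the receptor median of its own array, so there it was not above background, and in 6 of 7 controls it was above. With krill values raised to the receptor median of each array, Nr1d1 was 1.87-fold lower than the control mean, and 3.33-fold lower for krill replicates 1, 3 and 6 alone. These are estimates of a bound, since the control mice themselves varied (log2 SD 1.21, n = 7). The fitted log2 change was -2.10 (SE 0.50, limma adjusted p = 0.00266), and -2.47 (SE 0.59, limma adjusted p = 0.00629) without krill replicates 2, 4, 5 and 7, and its size is not a measured level. With no signal filter the limma adjusted p was 0.00173. Filtered on the mean of log2 signal instead, the probe set stood at the 43.7th percentile and was not tested.

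**Figure D2:**
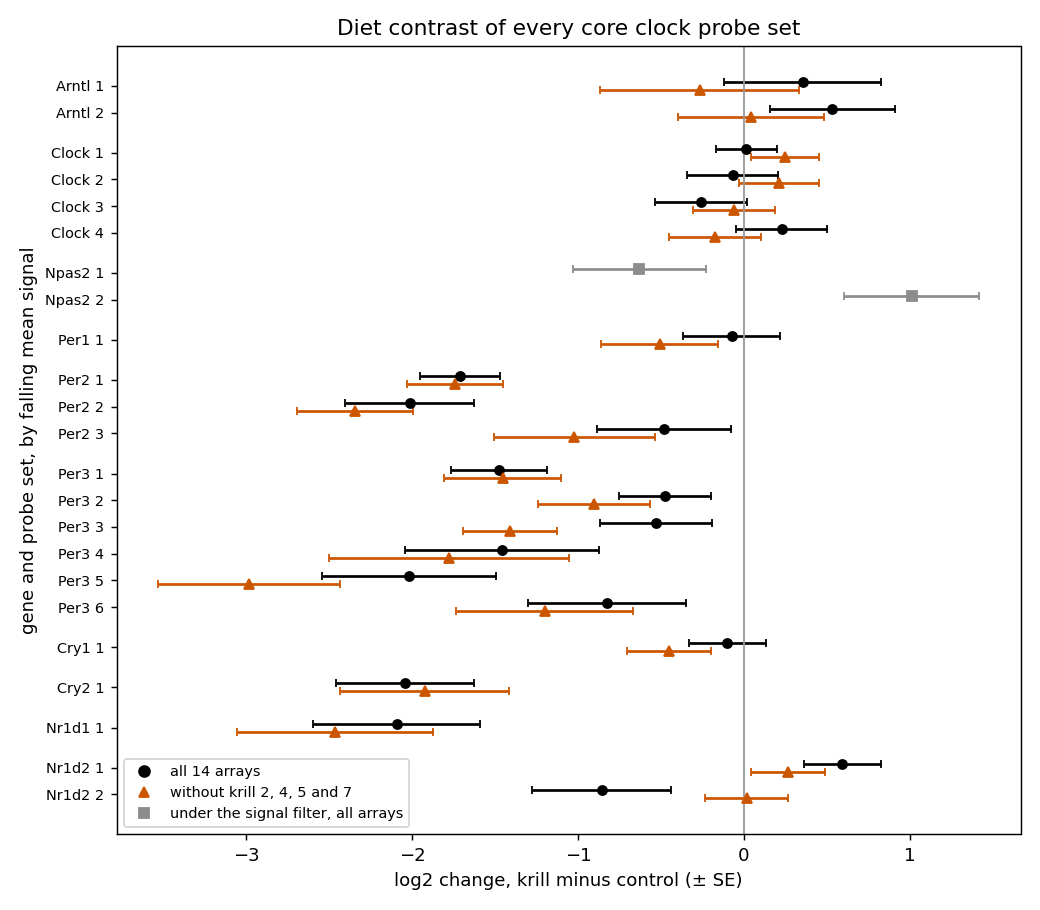
Log2 change of each of the 23 clock probe sets, krill minus control, with bars of 1 moderated SE, numbered within a gene by falling mean signal. Black circles use all 14 arrays, orange triangles leave out krill replicates 2, 4, 5 and 7, and grey squares mark the Npas2 probe sets under the filter. The probe sets of Per2 and Per3 all lie left of 0, while those of Nr1d2 and of Npas2 part in sign.

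Nr1d2, the REV-ERB beta receptor, was the brightest member and was the gene called higher. Its main probe set read 5042, 6101 and 8372 (lowest, median and highest) in control and 4489.7, 9158 and 18781 in krill livers. In 5 of 7 krill mice it was above every control, and krill replicate 3 was below every control. The change of 0.59 (SE 0.23) passed narrowly (limma adjusted p = 0.0407). The call was lost when any of control replicates 1 to 6 or krill replicates 4 to 7 was left out, with changes from 0.43 to 0.77 over all 14 such fits (limma adjusted p from 0.00385 to 0.0837). Without krill replicates 2, 4, 5 and 7 together it was 0.26 and did not pass (limma adjusted p = 0.393). The second Nr1d2 probe set had a change of -0.86 (SE 0.42, limma adjusted p = 0.101), of the opposite sign. The 2 probe sets averaged to -0.13 (limma adjusted p = 0.682). The direction of Nr1d2 was therefore not settled, and it also turned with spike-in scaling, to -0.20.

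Per1, a period gene that also responds to glucocorticoids, and Cry1, the stronger of the cryptochrome repressors, were the other members of the negative limb. Per1 read 121, 327 and 548 (lowest, median and highest) in control and 203, 322 and 508 in krill livers, and every krill value lay inside the control range. Its change was -0.07 (95% interval -0.68 to 0.53, limma adjusted p = 0.846). Cry1 read 316, 469.7 and 870.0 in control and 292, 392 and 686 in krill livers, with a change of -0.10 (95% interval -0.58 to 0.38, limma adjusted p = 0.726). These intervals do not reach the changes fitted for Per2, Per3, Cry2 and Nr1d1, though the difference between genes was not tested. In krill replicates 1, 3 and 6 alone both genes were lower than the control mean in each mouse, with changes of -0.51 for Per1 (limma adjusted p = 0.288) and -0.45 for Cry1 (limma adjusted p = 0.184), neither of which passed. Under spike-in scaling both were called lower, at a median change of all genes of -0.70.

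The positive limb held no called gene. Arntl read 70.5, 139 and 368 (lowest, median and highest) in control and 19.6, 247 and 398 in krill livers. Its range in krill mice enclosed that of the controls, with 1 krill mouse below and 1 above all of them. The change was 0.35 (95% interval -0.63 to 1.34, limma adjusted p = 0.545), and the second Arntl probe set gave 0.53 (SE 0.38, limma adjusted p = 0.254). That second probe set passed the filter mainly through its krill arrays. The first moved most when krill replicate 6 was left out, to 0.77 (SE 0.35, limma adjusted p = 0.0695), and over all 14 fits that leave out an array it ranged from 0.18 to 0.77. Without krill replicates 2, 4, 5 and 7 these stood at -0.27 and 0.04, so the sign of the first turned. On the arrays left out the receptor background was raised, and Arntl exceeded the 95th percentile of the receptor probe sets on 2 of 7 krill arrays compared with 4 of 7 control arrays.

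Clock, the constitutive partner of ARNTL, read 407, 504 and 729.8 (lowest, median and highest) in control and 404, 512 and 697 in krill livers. Its change was 0.01 (95% interval -0.36 to 0.39, limma adjusted p = 0.955), and its 4 probe sets ranged from -0.26 to 0.23 with none called. Of the 9 genes tested it had the narrowest interval. Npas2, which can replace CLOCK, read 16.7, 65.0 and 92.0 in control and 8.15, 22.3 and 75.3 in krill livers on its brighter probe set. No array had either Npas2 probe set above the 95th percentile of the receptor probe sets. Fitted with no signal filter, the 2 probe sets changed by -0.63 and 1.01, in opposite directions, and neither passed (limma adjusted p = 0.236 and 0.0661).

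Whether the limbs moved in opposite ways was asked mouse by mouse. For each gene the deviation of a mouse from the control mean was taken on the log2 scale and averaged over the 3 positive and the 7 negative limb genes, as a description with no test. The negative limb was below the control mean in 7 of 7 krill mice, from -1.71 in replicate 3 to -0.40 in replicate 7, while control mice ranged from -0.65 to 0.50. The groups overlapped through krill replicate 7 and control replicate 5. Nr1d1, under background in all 7 krill mice, entered these averages at deviations of -2.72 to -1.49. The size of the negative limb shift therefore rests in part on values that are not measured levels. The limb was not averaged without Nr1d1. In the positive limb krill mice ranged from -1.06 to 0.61 and control mice from -0.72 to 0.81. The krill means were -0.99 ± 0.40 (SD, n = 7) for the negative and -0.09 ± 0.50 (SD, n = 7) for the positive limb, and the median deviation of all genes tested averaged 0.06.

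An opposite shift, with the positive limb up and the negative limb down, was seen in 2 of 7 krill mice, replicates 1 and 5, and in the other 5 both limbs were down. Without the dim Npas2 the positive limb was up in 6 of 7 krill mice, by 0.14 to 0.66, and replicate 6 stood alone at -1.01. Among krill replicates 1, 3 and 6 this count was 2 of 3. The low value of replicate 6 came from the brighter Arntl probe set, since Clock was up there (0.15). The second Arntl probe set was above its control mean in that mouse. Clock itself was below its control mean in 4 of 7 krill mice, replicates 2, 4, 5 and 7. In these 4 mice the rise came from Arntl alone, on arrays with raised background. Without Npas2 the krill mean of the positive limb was 0.18 ± 0.56 (SD, n = 7), and control mice ranged from -0.62 to 0.87, so 6 of 7 krill mice lay inside the control range. Without krill replicates 2, 4, 5 and 7 the means over all members were -0.32 for the positive and -1.18 for the negative limb. With the probe sets of each gene averaged the positive limb mean was 0.20, of the opposite sign to the -0.09 above, and the negative limb mean was -0.997. The negative limb did not move as a block either, since Per1 and Cry1 lay on both sides of the control mean (3 of 7 and 4 of 7 krill mice below) and Nr1d2 was above it in 6 of 7.

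**Figure D3:**
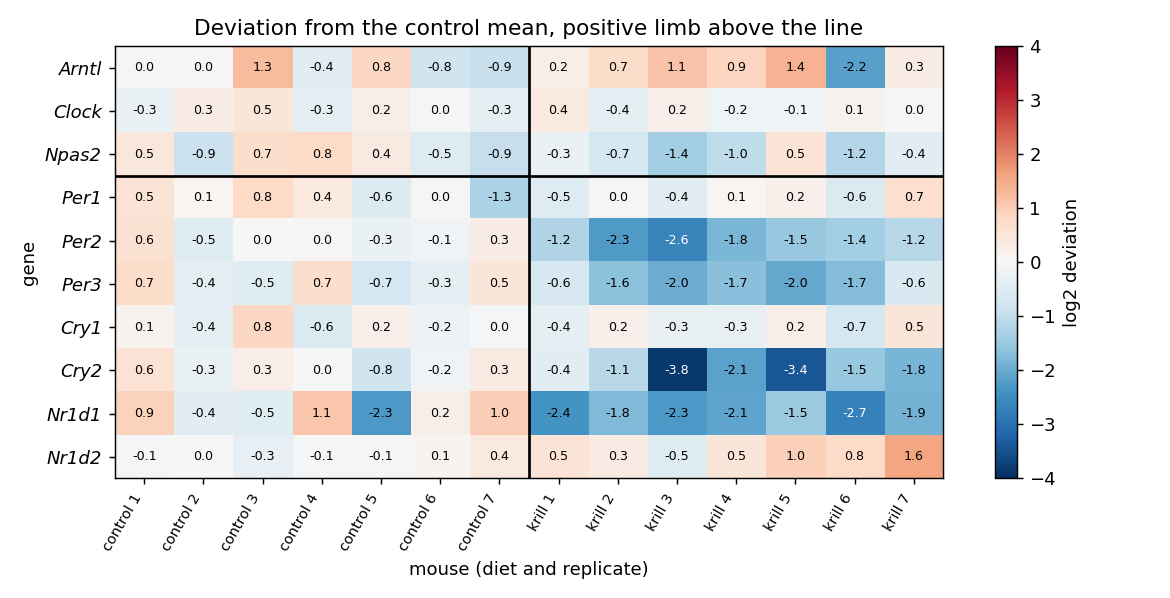
Log2 deviation of each clock gene from the control mean in each mouse, with positive limb genes above the horizontal line and krill mice right of the vertical line. Per2, Per3, Cry2 and Nr1d1 are blue in every krill mouse, while Clock, Per1 and Cry1 lie on both sides of 0 in both diets.

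**Figure D4:**
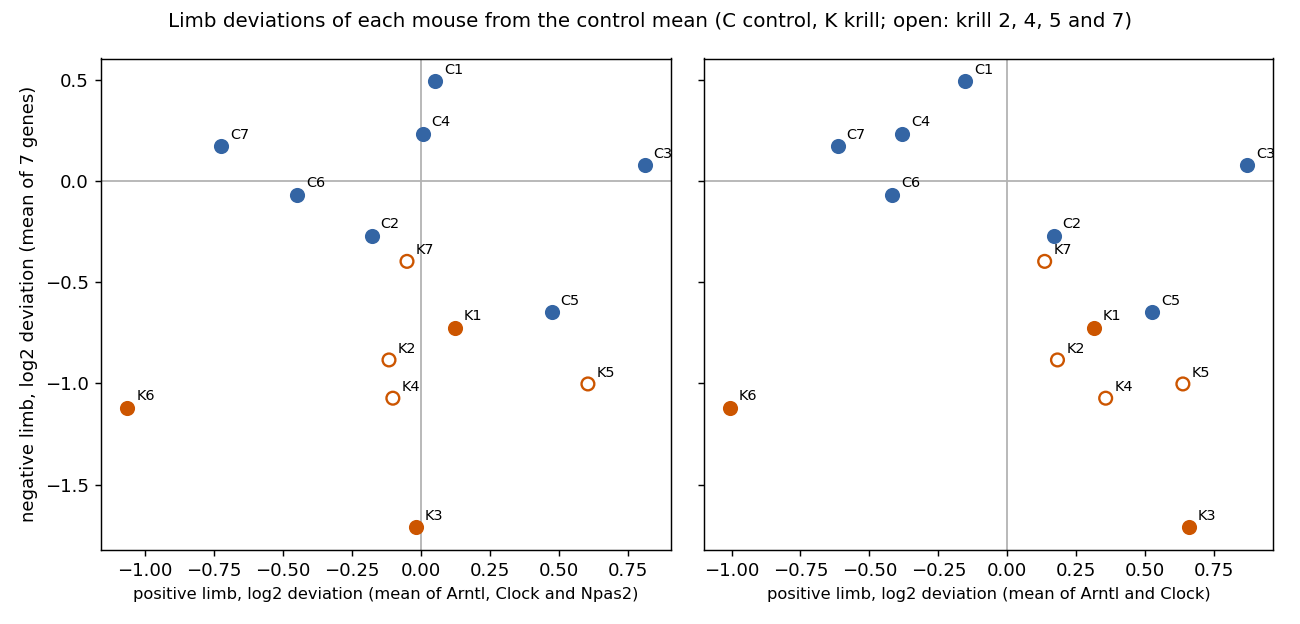
Mean log2 deviation of the 7 negative limb genes against that of the positive limb, for each mouse, with Npas2 (left) and without it (right). Krill mice lie below 0 on the vertical axis in both panels, and 6 of 7 lie right of 0 on the horizontal axis only once Npas2 is left out.

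Read gene against gene, Arntl and Nr1d1 stood on opposite sides of their control means in 6 of 7 krill mice, each time with Arntl up and Nr1d1 down. Krill replicate 6, with an Arntl signal of 19.6 and an Nr1d1 signal of 14.4, had both down. Both values lay under the receptor median of that array (38.6). The second Arntl probe set read 140 in the same mouse, above its control mean of 102.5. In krill replicate 3 the 2 Arntl probe sets parted the other way, at 333 and 42.3. Nr1d1 was down and under the receptor median in all 7 krill mice, so the count of 6 of 7 follows the brighter Arntl probe set alone. The count was 2 of 3 in krill replicates 1, 3 and 6, and the other 4 mice are those with the most raised background. All 7 control mice had both genes on opposite sides. Arntl was up and Nr1d1 down in 3, and the reverse in 4. In control replicates 1 and 2 the Arntl deviation was only -0.043 and 0.033, against a control log2 SD of 0.80, so its sign there means little. Control replicate 5 joined a high Arntl (265) to the lowest control Nr1d1 (25.0) and to a low Per3 (484). Control replicate 7 joined the lowest control Arntl (70.5) to a high Nr1d1 (376) and Per3 (1132).

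This spread within the control diet was tested by correlating Arntl with the other 9 members over the 7 control mice. The unadjusted values were clearest for Clock (Pearson r = 0.80, exact permutation p = 0.0361; Spearman rho = 0.86, exact permutation p = 0.0238), for Nr1d1 (r = -0.70, exact permutation p = 0.102; rho = -0.79, exact permutation p = 0.048) and for Nr1d2 (r = -0.84, exact permutation p = 0.00278; rho = -0.89, exact permutation p = 0.0123). After adjustment over the 9 relations only the Pearson value of Nr1d2 passed (exact permutation, two-sided, adjusted p = 0.025), and its Spearman value did not (exact permutation adjusted p = 0.107). Without control replicates 3 and 5, whose Arntl lay farthest from the median, r was -0.77 for Nr1d2, -0.36 for Nr1d1 and 0.47 for Clock. The relations of Arntl with Clock and Nr1d1 were thus weaker without those 2 mice. Leaving out the extremes of Arntl narrows its range, which can lower r in itself. The relation with Nr1d2 passed in 4 of 13 alternative settings, several of which held fewer mice and so could pass less easily. The r of Arntl was -0.58 with Per3, -0.26 with Per2, -0.24 with Cry2, 0.57 with Npas2, 0.42 with Per1 and 0.74 with Cry1, and none of these passed (exact permutation adjusted p from 0.219 to 0.587). No such value is given for krill mice, whose arrays fell into a set of 4 and a set of 3 by quality.

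**Figure D5:**
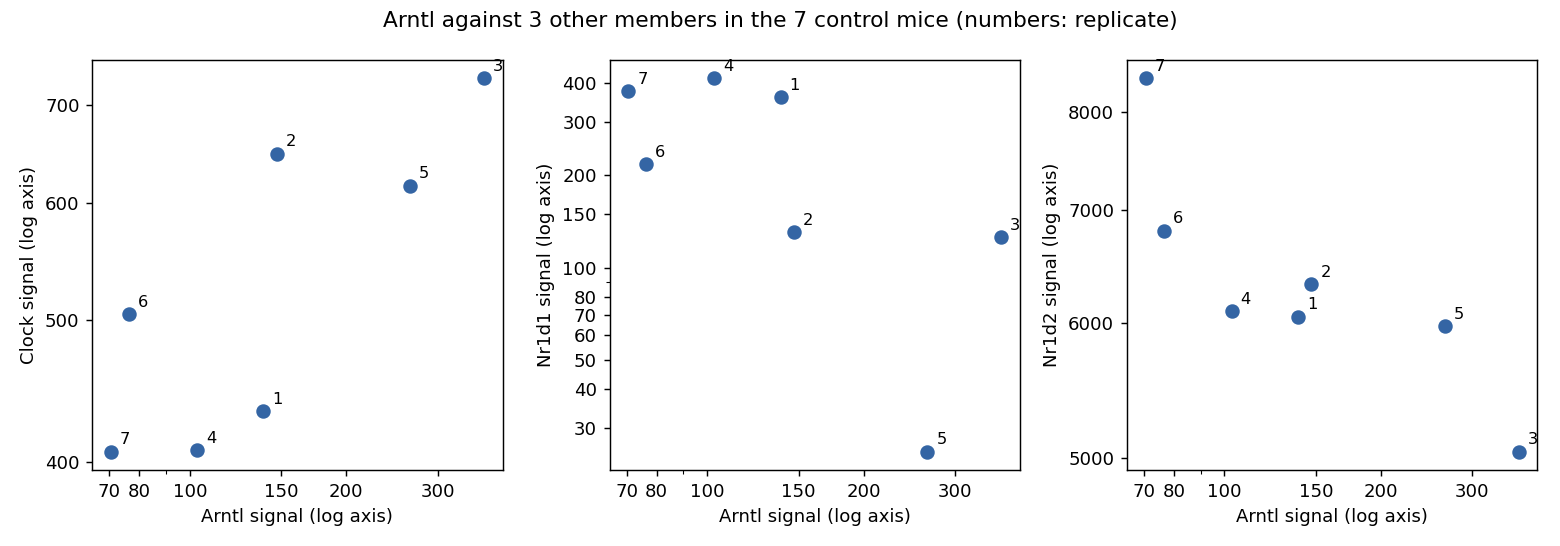
Signal of Clock, Nr1d1 and Nr1d2 against that of Arntl in the 7 control mice, on log axes, each point a mouse with its replicate number. Clock is higher and both Nr1d genes are lower in the mice with the highest Arntl, replicates 3 and 5.

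Other genes of the clock were counted from a list of 20 output and modulating factors, of which 13 were tested. Of these 10 fell, 0 rose and 3 did not pass (limma), against 25.3% of all genes called lower, and the median was -0.96. Dbp, Tef and Hlf, the PAR bZIP activators that bind D-boxes, changed by -0.85, -1.15 and -1.27 (limma adjusted p from 0.000567 to 0.0252), and Usp2, a clock-driven deubiquitinase, by -0.96 (limma adjusted p = 0.0028). Nfil3, the repressor at the same D-boxes, and Bhlhe40, a repressor at E-boxes, changed by -1.97 and -1.74 (limma adjusted p = 0.000139 and 0.000214). Without krill replicates 2, 4, 5 and 7 there were 8 of 13 lower, against 19.8% of all genes. The calls lost were those of Dbp, at -0.93 (limma adjusted p = 0.101), and of Rora, an activator of Arntl, which went from -1.57 to -0.29 (limma adjusted p = 0.178). Nfil3 and Tef kept their calls with smaller changes, -1.04 and -0.71. With the spike-in level as a covariate 5 of 13 were lower, against 10.8% of all genes. With the 3'/5' index as a covariate 0 of 13 passed.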

How the data were processed

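Liver RNA of 14 mice was measured on 14 arrays, grouped and numbered by their titles. The deposited values are linear signal intensity per probe set, made with MAS5 per the submitters' processing notes, in a version not given in the sources used here. Each array of the deposited intensity table has a mean of 500 once the lowest and highest 2% of probe sets are left out, and array medians still differ. Detection calls are not used here.

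The platform table listed 34945 of the 45037 probe sets that are not controls with 1 symbol, 932 with several and 9160 with none. All 10 members matched the mouse gene table of GRCm38.p6 by gene number, and promoter windows came from RefSeq. Probe set positions are not analysed here.

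Tests used log2(signal + 16), a scale that understates the change of dim genes. The diets were compared by limma 3.58.1 under R 4.3.3 (lmFit, then eBayes with trend) on the upper 50% of probe sets by mean signal, both for 22519 probe sets and for 11343 genes by their brightest probe set, with Benjamini-Hochberg adjustment at 0.05. The procedure was tested on simulated data. Correlations used exact permutation over 5040 pairings in scipy 1.17.1. The members, lists and alternatives were chosen with earlier results of these data known. All 10 members are named whatever their p. Of the other clock genes 8 could be named with values where tested. Each array holds a separate mouse, so p-values measure the variation among mice together with their arrays, and the number of arrays limits the precision. Alternatives covered the pseudocount, normalization, filter, choice of probe set, trend, array weights, replicate block and each array left out. Added after seeing the data were leaving out 4 krill arrays, covariates for spike-in level and for 3'/5' index, spike-in scaling, a filter on mean log2 signal, and limbs without Npas2 or Nr1d2.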

Additional observations from a re-analysis of the deposited data

Results flagged for a closer look

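Of 48 sets of 7 values checked (21 probe sets and 3 limb measures in each diet), 6 held a mouse far from the rest, by the gap to its neighbour over the whole range (Dixon's 95% limit). Chance gives about 1 in 20 such sets. In krill replicate 6 the brighter Arntl probe set read 19.6, with a gap of 0.674 of the range, and the positive limb shift of the same mouse was -1.06, with a gap of 0.5681. The second Arntl probe set read 140 in that mouse. In krill replicate 3 the second Arntl probe set read 42.3 (gap 0.605), although the brighter Arntl probe set read 333 in that mouse. Krill replicate 1 had the lowest value of the dimmest Per2 probe set, 13.8 (gap 0.703). Krill replicate 2 had the lowest value of the dimmer Nr1d2 probe set, 53.4 (gap 0.592). Control replicate 5, the control with the lowest Nr1d1, also had the lowest value of a Per3 probe set, 26.8 (gap 0.702).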

How the results depend on the processing

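The calls of Per2, Per3, Cry2 and Nr1d1 as lower remained in every alternative that tested the gene except that with the 3'/5' index as a covariate, where 0 of the 4 passed. Nr1d1 was not tested in the upper 30% of signal or with the filter on mean log2 signal. Their log2 changes stayed between -2.71 and -1.13, over the 27 to 29 alternatives that gave a value. With each array left out in turn 4 genes and 6 to 8 probe sets were called lower, and 0 to 1 genes and 0 to 1 probe sets higher. Member probe sets called lower, 7 with all arrays, numbered 11 with arrays centred on their medians (34.1% of all probe sets lower), 3 of 11 in the upper 30% of signal (33.5%), 0 with the 3'/5' index, where 0 of all were called, and 15 with spike-in scaling (49.3%). The call of Nr1d2 as higher (1 gene, 1 probe set) went to 0 with quantile normalization, centring, no trend, array weights, the averaged probe sets, the 4 krill arrays left out, a covariate for spike-in level or 3'/5' index, and spike-in scaling, except that by probe set averaging does not apply, and the probe set count was 0 with no signal filter as well. The krill means of the positive and negative limbs moved to -0.72 and -1.68 with spike-in scaling (median of all genes -0.70), to -0.49 and -1.39 with centring, to -0.32 and -1.18 without the 4 krill arrays and to 0.20 and -0.997 with averaged probe sets, and spanned -0.21 to 0.07 and -1.09 to -0.87 with arrays left out. Arntl had a negative r with 5 of 7 negative limb genes in control mice, with 3 under spike-in scaling and with 4 to 5 when a mouse was left out. The sign turned for Arntl, Clock, Per1, Cry1 and Nr1d2. Arntl stood at -0.050 with centring, -0.27 without the 4 krill arrays, -0.17 with the spike-in level and -0.36 with spike-in scaling. Clock stood at -0.39 with centring, -0.021 for the mean of its probe sets, -0.74 with spike-in scaling and between -0.052 and 0.091 with arrays left out. Per1 lay between -0.28 and 0.058 and Cry1 between -0.20 and 0.038 with arrays left out, and Cry1 at 0.15 with quantile normalization. Nr1d2 stood at -0.13 for the mean of its probe sets, -0.23 with the 3'/5' index and -0.20 with spike-in scaling. The cause of these moves was not tested. Replicate numbers did not pair the mice (correlations of same-numbered deviations from -0.02 to 0.10), and with the replicate block 4 genes and 6 probe sets were called lower, and 1 gene higher.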

Other observations

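Genes whose signal followed a member most closely across mice were ranked by Pearson r over deviations from the own diet mean, on all 14 arrays. The krill arrays fell into 2 sets by quality, whose part in these values was not tested, so the r of the 7 control mice is given beside each. The control arrays are among the 14 by which the genes were picked, so their r is not a separate check. Nr1d1 was under background on all 7 krill arrays and varied more among controls (log2 SD 1.21 against 0.42), so its ranking leans on the controls. The values describe these arrays and carry no test. Closest to Arntl were Cdkn3 (r = 0.91, and 0.79 in the 7 control mice), Zbtb21 (0.90 and 0.86) and Med18 (0.86 and 0.75). Most opposite were Nsdhl (-0.80 and -0.70), Rnf145 (-0.80 and -0.61) and Lmna (-0.80 and -0.79). Closest to Nr1d1 were Ifitm7 (0.98 and 0.99), Slc4a2 (0.88 and 0.92) and Ctdnep1 (0.86 and 0.91), and most opposite were Hibch (-0.92 and -0.93), Apoo (-0.86 and -0.87) and Paip2 (-0.85 and -0.96). No other clock gene of the lists was among the 3 most alike or most opposite to Arntl or Nr1d1.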
